A study of Homo sapiens with 9 samples.

Results

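PDPK1, the AKT kinases AKT1 and AKT2, MTOR, the S6 kinases RPS6KB1 and RPS6KB2, and the SGK kinases SGK1, SGK2 and SGK3 were followed through a pooled knockout screen. They were taken by gene name from a table of reads per single guide RNA (sgRNA), which held 9 of these genes among 763, with 36 of 3152 sgRNAs. The screen was run in RH4, an established line of fusion-positive rhabdomyosarcoma that carries PAX3::FOXO1, so a single line stands for the tumour type. Every group carried the Brunello kinome library, a lentiviral pool that puts Cas9 and an sgRNA against a kinase or a kinase-related gene into each cell, and every group had been selected with puromycin. The groups, with 3 libraries each, were cells kept in pralatrexate, an antifolate, at 1.5 nM until day 10, cells kept in vehicle until day 10, and baseline cells taken when selection ended. After the baseline harvest the other cells recovered for 72 h before drug or vehicle began, so both comparisons with baseline include that time. Libraries held 2468136 to 4602712 reads, on average 1218.7 ± 221 per sgRNA (SD, n = 9 libraries). In the study's text the repeats appear once as separate cultures and once as technical replicates. A p-value from the spread over libraries therefore covers these libraries alone, and that spread may be technical. The p-value of a gene in the rank test below measures how far its sgRNAs rank together, given such p-values.

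These kinases form a signalling line from growth factor receptors to protein synthesis. PI3K makes a membrane lipid that recruits PDPK1 and AKT, and PDPK1 phosphorylates the activation loop of AKT, S6K and SGK kinases. MTOR is the catalytic subunit of the complexes mTORC1, which activates S6K and drives cell growth, and mTORC2, which completes the activation of AKT and SGK. The line is known for its activity in rhabdomyosarcoma, where IGF signalling feeds into it. In a screen of this kind the sgRNA is read from genomic DNA, so its read share tracks how many cells bear it and says nothing of the level of the protein.

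On GRCh38, in the GENCODE annotation, MTOR spans 11106535 to 11262556 of chromosome 1 (minus strand), PDPK1 spans 2537979 to 2603188 of chromosome 16 (plus strand) and AKT1 spans 104769349 to 104795751 of chromosome 14 (minus strand). AKT2 spans 40230317 to 40285536 of chromosome 19 (minus strand). RPS6KB1 spans 59893046 to 59950574 of chromosome 17 (plus strand), and RPS6KB2 spans 67428460 to 67435401 of chromosome 11 (plus strand). SGK1 spans 134169248 to 134318112 of chromosome 6 (minus strand), SGK2 spans 43558968 to 43588237 of chromosome 20 (plus strand) and SGK3 lies on chromosome 8. SGK3 shares its locus with the read-through gene C8orf44-SGK3, which has 4 sgRNAs of its own, and PDPK1 has a pseudogene copy, PDPK2P, on the same chromosome. The files name sgRNAs by gene and number, so cut sites inside these spans were not placed, and sgRNAs are numbered here from 1 to 4 in the order of the table.

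All 9 genes had 4 sgRNAs in the table, and 35 of the 36 were tested. The exception was AKT2 sgRNA 4 (Brunello_Kin_A_60), which had 4, 9 and 0 reads in the pralatrexate libraries, 1, 12 and 11 in the vehicle libraries and 11, 2 and 11 at baseline. It was nearly absent before any growth with drug or vehicle and fell under the minimum mean of 30 reads, so AKT2 rests on 3 sgRNAs. A level is given below as the mean log2 CPM of a gene's sgRNAs, where CPM is an sgRNA's count scaled to the size of its library. It depends on how much of each sgRNA the pool started with, so levels are compared between groups for a gene and not between genes. Fold changes of a gene, in log2 units, average those of its sgRNAs and carry the SD over them.

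**Figure D1:**
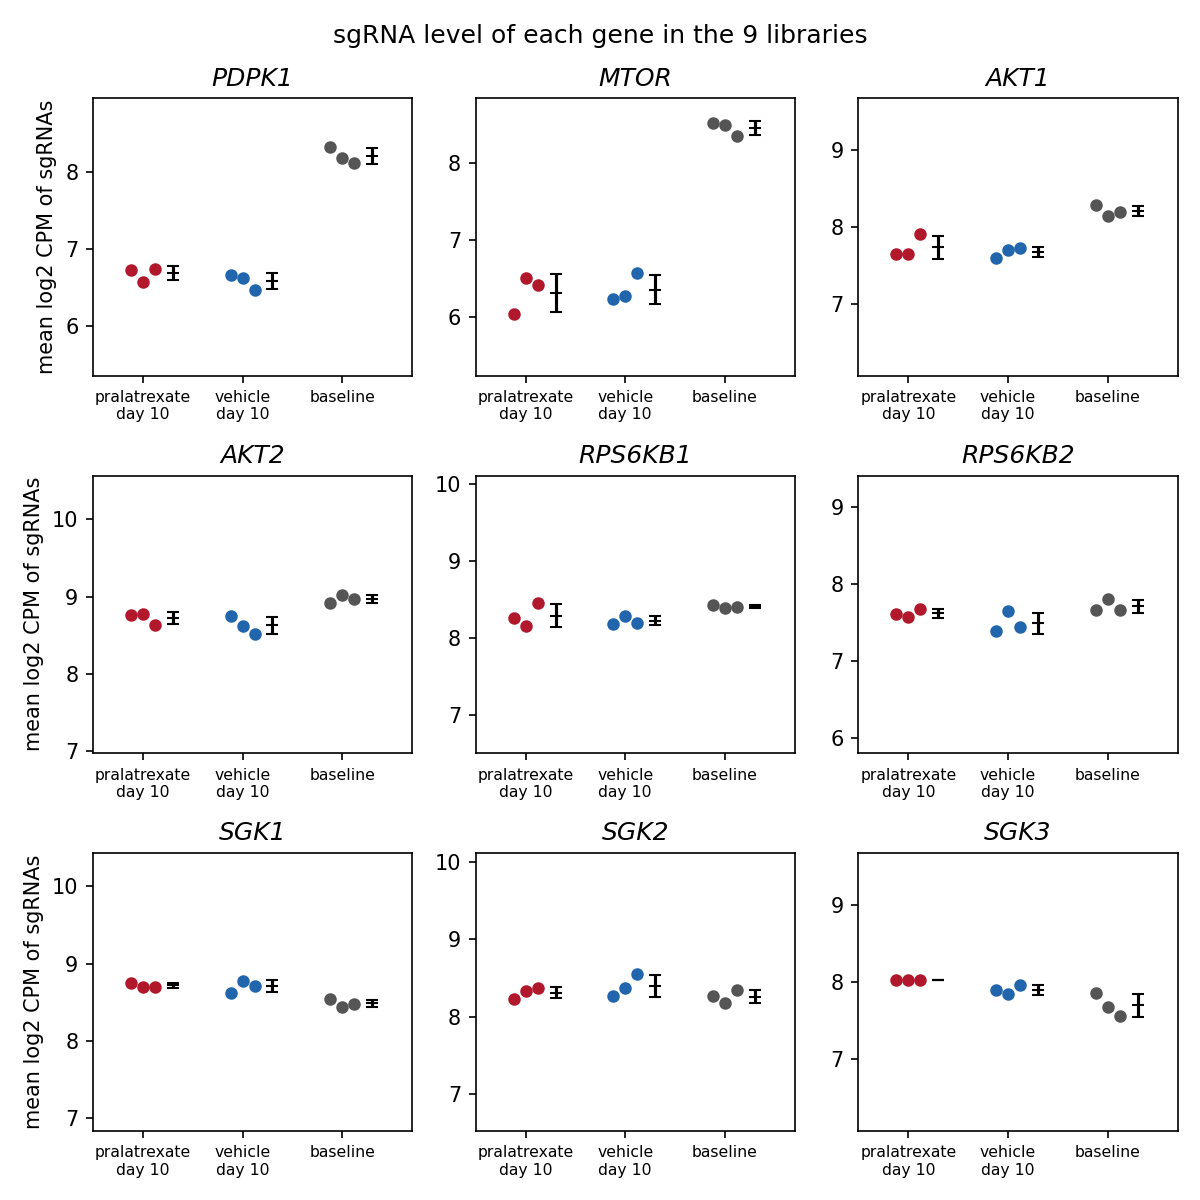
Mean log2 CPM of the sgRNAs of each gene (vertical axis, the same span in every panel) in each of the 9 libraries, with pralatrexate in red, vehicle in blue and baseline in grey, and black bars for mean ± SD (n = 3 libraries). The MTOR and PDPK1 points with pralatrexate or vehicle lie far below baseline, the AKT1 points lie below it by less, and pralatrexate and vehicle points overlap for every gene except SGK3.

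The comparison of vehicle with baseline asked which knockouts were lost as RH4 cells grew without drug. MTOR, PDPK1 and AKT1 were depleted, AKT2 and the S6 kinases had changes of -0.34 to -0.18 that did not pass the test, and none of the SGK genes was depleted. Among the 9 genes 3 were depleted and none enriched at a false discovery rate (FDR) of 0.05, where 7.47% of all 763 genes were depleted and 0.524% enriched. The FDR came from robust rank aggregation, which asks whether a gene's sgRNAs rank lower, or higher, together than sgRNAs drawn at random, on p-values from edgeR and with Benjamini-Hochberg adjustment over all 763 genes. At an unadjusted p under 0.05 the numbers were 4 depleted and 1 enriched of the 9, where 15.1% and 7.86% of all genes were.

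The non-targeting sgRNAs and the median gene give the scale of these values. The 99 tested non-targeting sgRNAs, which cut no gene, had a median change of 0.31 in vehicle against baseline, with single values between -0.05 and 0.67, and 38 of them were called higher. The median over all genes was 0.02 and that over the 9 genes was -0.21. Set against the non-targeting median, the median of the 9 genes was -0.53.

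MTOR had 6.23, 6.26 and 6.56 log2 CPM in the vehicle libraries, against 8.51, 8.49 and 8.34 at baseline. The groups did not overlap and lay further apart than any libraries within a group. The fitted change of MTOR was -2.07 ± 1.33 (log2, SD over 4 sgRNAs; rank aggregation FDR 0.00221), or 0.239 of baseline, the 11th lowest of 763 genes. Against the non-targeting median the change was -2.38.

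Each of the 4 MTOR sgRNAs was called lower, but by very different amounts. MTOR sgRNA 2 (Brunello_Kin_A_490) had 46, 67 and 155 reads in the vehicle libraries, against 1171, 1229 and 952 at baseline. It fell by 3.71 (SE 0.30; edgeR FDR 1.7e-10), the largest decrease among the tested sgRNAs of the 9 genes. MTOR sgRNA 4 had 193, 418 and 292 reads with vehicle, against 1792, 1649 and 1538 at baseline, and fell by 2.54 (SE 0.21). Its sgRNAs 3 and 1 fell by 1.22 (SE 0.12) and 0.80 (SE 0.20), so that the sgRNAs of this gene spanned 2.92 log2 units.

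PDPK1 had 6.66, 6.63 and 6.47 log2 CPM in the vehicle libraries, against 8.33, 8.19 and 8.12 at baseline, with no overlap. It fell by 1.63 ± 1.27 (SD, 4 sgRNAs; FDR 0.0120), the 20th lowest gene, and stood at -1.94 against the non-targeting median. The sgRNAs of PDPK1 split 3 to 1. PDPK1 sgRNA 4 (Brunello_Kin_A_888) had 149, 234 and 208 reads with vehicle, against 1352, 1303 and 802 at baseline, and fell by 2.58 (SE 0.22; edgeR FDR 3.74e-10). Those numbered 3 and 2 changed by -2.34 (SE 0.20) and -1.79 (SE 0.24), and both were called. PDPK1 sgRNA 1 (Brunello_Kin_A_885) had 1405, 2177 and 2133 reads with vehicle, against 1676, 1683 and 1399 at baseline, a change of 0.21 (SE 0.11; FDR 0.186), inside the range of the non-targeting sgRNAs.

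AKT1, one of the kinases that PDPK1 activates, had 7.59, 7.69 and 7.73 log2 CPM with vehicle, against 8.28, 8.14 and 8.19 at baseline. The decrease was smaller than those of MTOR and PDPK1, and the 4 sgRNAs lay close together, between -0.70 and -0.38. With a change of -0.51 ± 0.14 (SD, 4 sgRNAs; FDR 0.0174) it stood at 0.700 of baseline and was the 81st lowest gene. AKT1 sgRNA 1, the lowest, had 323, 637 and 359 reads with vehicle, against 798, 654 and 602 at baseline. Of the 4 sgRNAs 3 were called lower, and all 4 lay below every non-targeting sgRNA.

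AKT2, its close paralogue, had 8.74, 8.62 and 8.51 log2 CPM with vehicle, against 8.92, 9.02 and 8.97 at baseline. The libraries did not overlap, but the change of -0.34 ± 0.15 (SD, 3 sgRNAs) did not pass (FDR 0.194). Of its sgRNAs only AKT2 sgRNA 3 was called, with 1690, 2308 and 1929 reads with vehicle, against 2926, 2997 and 2220 at baseline. The difference between the changes of AKT1 and AKT2 was -0.19 (SE 0.13; exact two-sided permutation test, p = 0.2, where 3 against 3 libraries cannot go below 0.1).

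The S6 kinases, which phosphorylate ribosomal protein S6 downstream of mTORC1, did not pass the test. RPS6KB1 had 8.19, 8.29 and 8.20 log2 CPM with vehicle, against 8.43, 8.40 and 8.41 at baseline, a change of -0.18 ± 0.19 (SD, 4 sgRNAs; FDR 0.444). RPS6KB2 had 7.39, 7.65 and 7.44 with vehicle, against 7.66, 7.81 and 7.66 at baseline, a change of -0.21 ± 0.29 (FDR 1). In both genes every vehicle library lay below every baseline library, although the margin for RPS6KB2 was narrow. RPS6KB2 sgRNAs 1 and 4 stood at -0.55 and -0.35 and the others at 0.00073 and 0.05, and without sgRNA 1 the change of the gene was -0.10. None of the sgRNAs of either gene was called.

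The SGK kinases, which share substrates with AKT, showed no decrease on this scale. SGK1 had 8.62, 8.78 and 8.71 log2 CPM with vehicle, against 8.53, 8.44 and 8.47 at baseline, a change of 0.22 ± 0.16 (FDR 0.678). SGK2 had 8.26, 8.37 and 8.55 with vehicle, against 8.26, 8.17 and 8.34 at baseline (0.14 ± 0.10; FDR 1). SGK3 had 7.90, 7.84 and 7.96 with vehicle, against 7.86, 7.67 and 7.56 at baseline (0.19 ± 0.30; FDR 0.625). Vehicle and baseline libraries overlapped for SGK2 and SGK3 but not for SGK1, and these changes of all SGK genes turn negative when libraries are scaled to the non-targeting sgRNAs, to -0.11 for SGK1, -0.20 for SGK2 and -0.14 for SGK3. The read-through gene C8orf44-SGK3 changed by 0.16 ± 0.18 (FDR 1).

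Counted by library, 6 of the 9 genes had all vehicle libraries below all baseline libraries (PDPK1, MTOR, AKT1, AKT2 and both S6 kinases), where 24.4% of all genes did. SGK1 alone had them all above, where 19.5% of all genes did. Counted by sgRNA, 11 of 35 were called lower and 1 higher by edgeR (SGK1 sgRNA 3, with 0.40), where 12.8% of all 3145 tested sgRNAs were lower and 6.26% higher. The 11 came from MTOR (4), PDPK1 (3), AKT1 (3) and AKT2 (1). Below the lowest non-targeting sgRNA lay 20 of the 35, but 40.7% of all tested sgRNAs with a target gene did so too.

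In order of their change, low to high, the genes ran MTOR, PDPK1, AKT1, AKT2, RPS6KB2, RPS6KB1, SGK2, SGK3 and SGK1. By limma on gene levels, which takes the spread over libraries and not that over sgRNAs, the 95% interval was -2.33 to -1.86 for MTOR, -1.79 to -1.46 for PDPK1 and -0.70 to -0.36 for AKT1, so these did not overlap. From AKT1 on, each gene's interval overlapped that of its neighbour. AKT2 had -0.50 to -0.18, RPS6KB2 -0.39 to -0.05, RPS6KB1 -0.35 to -0.02, SGK2 -0.04 to 0.31, SGK3 0.04 to 0.37 and SGK1 0.08 to 0.36. The sgRNA of largest change was then left out in the 9 genes alone. Other genes kept all of theirs, which in itself works against a call. AKT1 (-0.45, FDR 0.0758) and PDPK1 (-1.31, FDR 0.108) then no longer passed and MTOR did. Without vehicle library 2, AKT1 stood at -0.53 with an FDR of 0.0719.

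**Figure D2:**
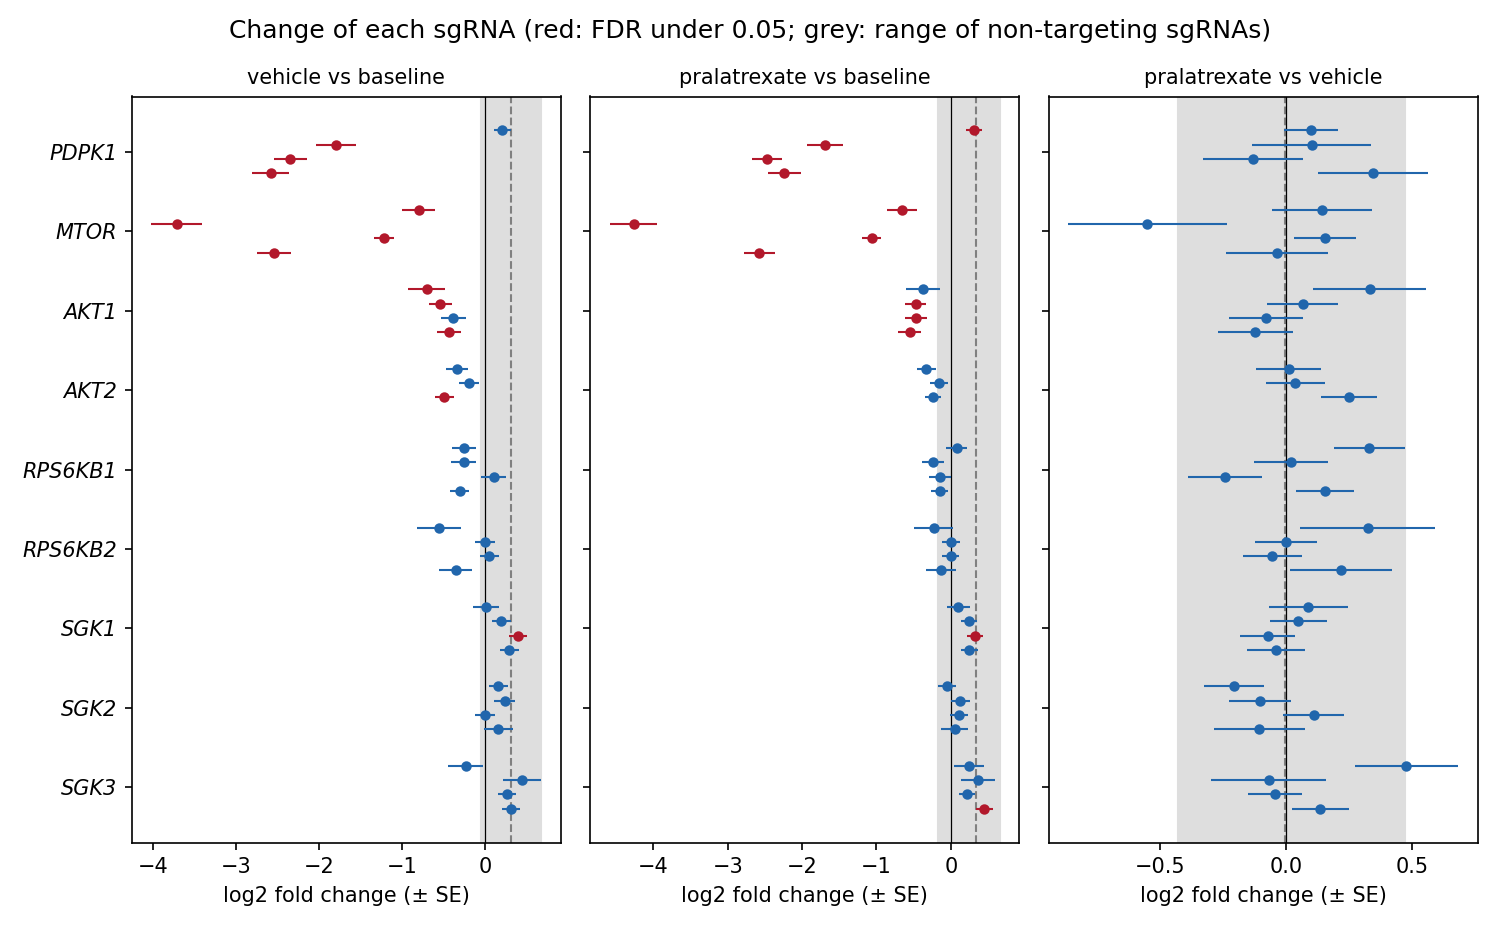
Log2 fold change of each tested sgRNA (horizontal axis, ± SE from edgeR) by gene in 3 comparisons, with red points called at FDR 0.05, blue points not called, the grey band for the range of the 99 non-targeting sgRNAs and the dashed line for their median. MTOR and PDPK1 sgRNAs reach -4.27 and -2.58, PDPK1 sgRNA 1 stays inside the band, and the scale of the last panel, pralatrexate against vehicle, is narrower than that of the others.

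The comparison of pralatrexate with vehicle asked whether loss of any of these kinases changed the growth of cells under the drug. None of the 9 genes was called in either direction, and none had an unadjusted p under 0.05. Over all genes 0.655% were depleted and 0% enriched, or 30 depleted and 41 enriched genes at an unadjusted p under 0.05. Changes of the 9 genes lay between -0.08 for SGK2 and 0.13 for SGK3, with a median of 0.07, beside 0.01 over all genes and -0.00 for the non-targeting sgRNAs.

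MTOR had 6.03, 6.50 and 6.41 log2 CPM with pralatrexate, against 6.23, 6.26 and 6.56 with vehicle. PDPK1 had 6.73, 6.58 and 6.75 with pralatrexate, against 6.66, 6.63 and 6.47 with vehicle. AKT1 had 7.64, 7.65 and 7.91 with pralatrexate, against 7.59, 7.69 and 7.73 with vehicle. For these genes, which were depleted by growth alone, the libraries of the groups interleaved. The limma 95% intervals of the difference were -0.27 to 0.19 for MTOR, -0.07 to 0.27 for PDPK1 and -0.11 to 0.23 for AKT1.

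AKT2 had 8.76, 8.77 and 8.63 log2 CPM with pralatrexate (interval -0.06 to 0.25), RPS6KB1 had 8.26, 8.16 and 8.46 (-0.10 to 0.23) and RPS6KB2 had 7.60, 7.57 and 7.67 (-0.04 to 0.29), each overlapping its vehicle libraries. SGK1 had 8.75, 8.70 and 8.70 with pralatrexate (-0.13 to 0.15) and SGK2 had 8.23, 8.33 and 8.37 (-0.25 to 0.09), which overlapped as well. SGK3 was the exception, with 8.02, 8.03 and 8.02 with pralatrexate, all above the 7.90, 7.84 and 7.96 with vehicle (0.13, interval -0.04 to 0.29; rank aggregation FDR 0.963). Of all genes 3.67% had every pralatrexate library above every vehicle library and 3.41% had every one below. Over the 9 genes the intervals reached from -0.27 to 0.29 on the log2 scale. Between libraries of the same number, AKT2 (0.01, 0.15 and 0.12) and SGK3 (0.13, 0.19 and 0.06) were higher with pralatrexate in all 3 pairs and SGK2 (-0.03, -0.04 and -0.18) was lower in all 3, where 13.5% and 12.6% of all genes were. With the replicate number as a term, limma's intervals were -0.07 to 0.26 for AKT2, -0.04 to 0.30 for SGK3 and -0.25 to 0.09 for SGK2, and no gene of the 9 was called.

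None of the 35 sgRNAs was called between pralatrexate and vehicle by edgeR, and 3 had an unadjusted p under 0.05. Over all tested sgRNAs 0.0318% were called and 5.60% had such a p. The sgRNAs that left the range of the non-targeting ones (-0.43 to 0.47) were MTOR sgRNA 2 and SGK3 sgRNA 1. MTOR sgRNA 2 had 41, 50 and 58 reads with pralatrexate, against 46, 67 and 155 with vehicle (-0.55, SE 0.32; FDR 0.911). The 41 reads are the lowest value of a tested sgRNA here, 11.1 CPM with a 95% Wilson interval of 8.20 to 15.1, which covers counting error only, and the reading of 155 came from vehicle library 3. SGK3 sgRNA 1 had 596, 368 and 656 reads with pralatrexate, against 380, 422 and 542 with vehicle (0.48, SE 0.21; FDR 0.82). SGK3 sgRNAs 2 to 4 changed by between -0.07 and 0.14.

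Differences between paralogues were computed for 10 pairings of a gene pair with a comparison. The smallest exact two-sided permutation p that 3 against 3 libraries allow is 0.1, so no pairing could pass 0.05 and the values are descriptions. This smallest p was reached by SGK2 minus SGK3 in pralatrexate against vehicle (-0.21, SE 0.08; Benjamini-Hochberg p over the 10 of 0.667, exact permutation test). RPS6KB1 minus RPS6KB2 was 0.03 (SE 0.07) in vehicle against baseline and -0.06 (SE 0.07) in pralatrexate against vehicle.

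**Figure D3:**
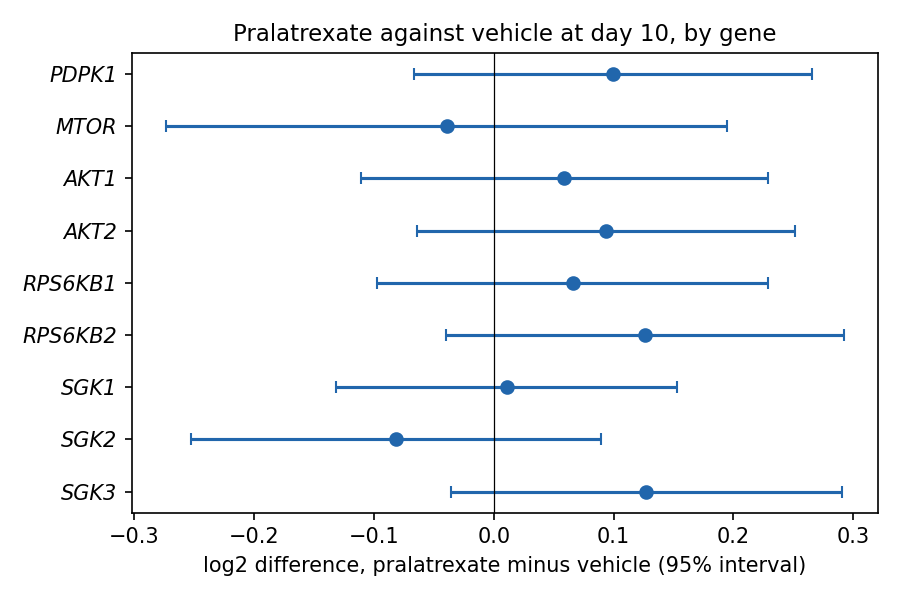
Difference in gene level between pralatrexate and vehicle at day 10 (horizontal axis, log2, pralatrexate minus vehicle) for the 9 genes, with bars for limma's 95% interval. Every interval includes 0, and that of MTOR, -0.27 to 0.19, is the widest.

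The comparison of pralatrexate with baseline shares its baseline libraries with that of vehicle, so it gives no separate support. MTOR and PDPK1 were depleted and no gene was enriched, where 7.34% of all genes were depleted and 0.262% enriched. MTOR fell by 2.14 ± 1.64 (SD, 4 sgRNAs; FDR 0.00382), the 8th lowest gene, beside -2.07 in vehicle. MTOR sgRNA 2 fell by 4.27 (SE 0.32), to 0.0520 of baseline. PDPK1 fell by 1.52 ± 1.26 (FDR 0.0145), again with sgRNA 1 apart, at 2002, 1140 and 2103 reads with pralatrexate, against 1676, 1683 and 1399 at baseline. That sgRNA rose by 0.31 (SE 0.11; edgeR FDR 0.0442), close to the non-targeting median of 0.34.

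AKT1 changed by -0.47 ± 0.08 (SD, 4 sgRNAs) in pralatrexate against baseline with an FDR of 0.0731, and 3 of its sgRNAs were called lower. It passed without baseline library 2 (FDR 0.0311) or without pralatrexate library 3 (FDR 0.0189). AKT2 changed by -0.24 ± 0.08, RPS6KB1 by -0.11 ± 0.14 and RPS6KB2 by -0.09 ± 0.11, none past the threshold. SGK1 changed by 0.23 ± 0.09, SGK2 by 0.06 ± 0.08 and SGK3 by 0.32 ± 0.11, which turn to -0.09, -0.26 and -0.00 when scaled to the non-targeting sgRNAs, and none was called. All pralatrexate libraries lay below all baseline libraries for 4 genes (MTOR, PDPK1, AKT1 and AKT2) and above them for SGK1 and SGK3, where 25.6% and 20.3% of all genes did.

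Of the 35 sgRNAs 10 were lower and 3 higher in pralatrexate against baseline, where 13.1% and 5.98% of all tested sgRNAs were. The 3 that were higher were PDPK1 sgRNA 1, SGK1 sgRNA 3 (0.32) and SGK3 sgRNA 4 (0.45), all within the range of the non-targeting sgRNAs. Without the sgRNA of largest change, left out in the 9 genes alone, PDPK1 no longer passed (-1.21, FDR 0.135).

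**Figure D4:**
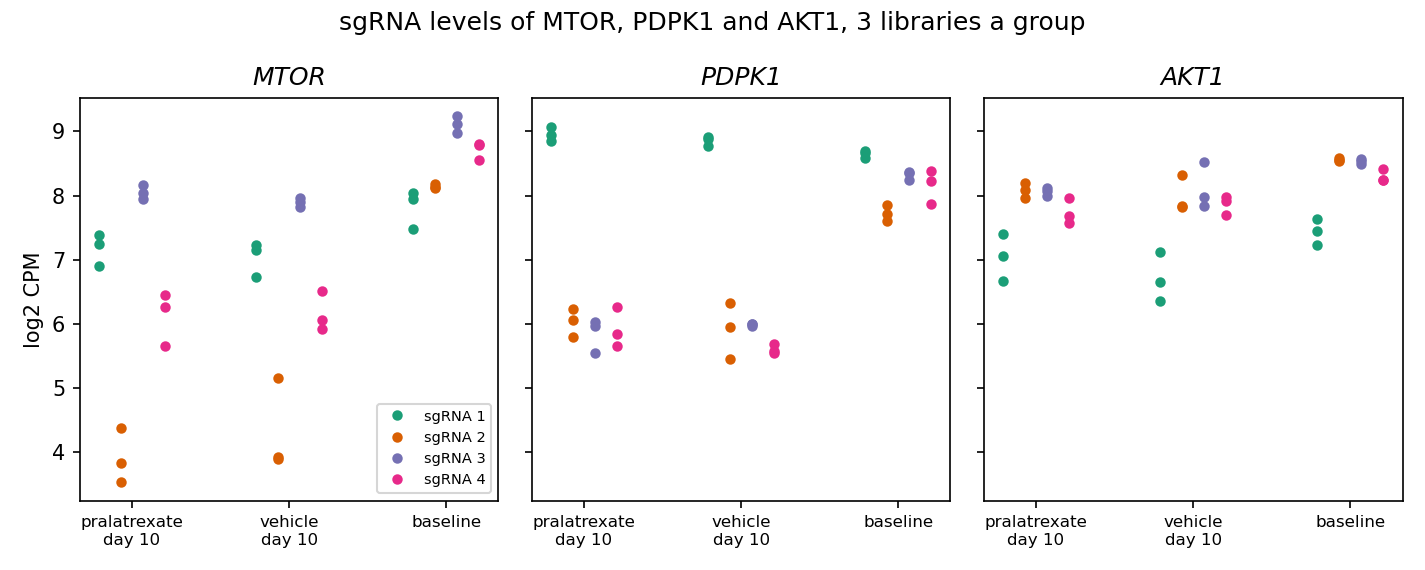
Log2 CPM (vertical axis) of the 4 sgRNAs of MTOR, PDPK1 and AKT1 in pralatrexate, vehicle and baseline libraries, each point a library and each colour an sgRNA. MTOR sgRNAs spread out with growth, with sgRNA 2 lowest, PDPK1 sgRNA 1 stays high beside 3 that fall together, and the AKT1 sgRNAs shift by less than 1 unit on average.

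The genes whose levels moved most like these over the 9 libraries were found by Euclidean distance. Levels were centred on each gene's baseline mean, and a distance of 0 would be the same profile. Nearest to MTOR were CHEK1 (0.768), PLK4 (0.849) and GUK1 (0.888), which changed by -2.20, -2.07 and -2.16 in vehicle against baseline. Nearest to PDPK1 were LRPPRC (0.397), CDK6 (0.401) and TAF1 (0.409), with changes of -1.73, -1.45 and -1.68. Nearest to AKT1 were BAZ1B (0.213), PTK2 (0.251) and IPMK (0.281), with changes of -0.49, -0.55 and -0.59. These are descriptions, and the points share libraries and depth.

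Of 30 further genes listed for the pathway, 29 were in the library, and the 9 genes can be placed among them. In vehicle against baseline 2 were depleted and 3 enriched, where 7.47% and 0.524% of all genes were. Their median was 0.03. Upstream, PIK3CA, the catalytic PI3K subunit p110-alpha, fell by 1.20 ± 0.80 (FDR 0.0201), while the receptors IGF1R (-1.39 ± 1.74, FDR 0.0775) and INSR (-0.17, FDR 1) did not pass. Downstream, WNK1, a kinase of ion transport that AKT and SGK1 phosphorylate, fell by 1.36 ± 1.40 (FDR 0.0386). GSK3A (0.43, FDR 0.0126) and GSK3B (0.50, FDR 0.0235), kinases that AKT inhibits by phosphorylation, rose. RPS6KA3, a ribosomal S6 kinase of the RSK group and a PDPK1 substrate, rose by 0.39 (FDR 0.0492). Against the non-targeting median these rises were 0.12 for GSK3A, 0.18 for GSK3B and 0.08 for RPS6KA3.

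Between pralatrexate and vehicle 1 of the 29 was depleted and none enriched, where 0.655% and 0% of all genes were. The depleted gene was PIK3R1, a regulatory PI3K subunit, which fell by 0.40 ± 0.08 (FDR 0.000111), while PIK3CA changed by 0.04 (FDR 0.977), IGF1R by -0.14 (FDR 0.982), INSR by -0.02 (FDR 1), GSK3A by -0.03 (FDR 1) and GSK3B by 0.09 (FDR 0.977). Against baseline PIK3R1 stood at 0.05 (FDR 1) with pralatrexate and at 0.45 (FDR 0.185) with vehicle, which are -0.29 and 0.14 against the non-targeting median. The call of PIK3R1 stands beside none among PDPK1, AKT, MTOR, S6K and SGK, and the difference between it and them was not tested. In pralatrexate against baseline PIK3CA was depleted (-1.16, FDR 0.00618) and GSK3B enriched (0.58, FDR 0.00337), where 7.34% and 0.262% of all genes were.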

How the data were processed

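The deposited table held raw counts, reads per sgRNA as the authors counted them, not normalized. The submitters' processing notes name Bowtie 1.0.0; how reads were counted is not given in the sources used here. No source mentions molecular identifiers, so PCR copies may count as reads. The authors' deposited MAGeCK tables hold their own fold changes and p-values per gene and were not used. MAGeCK was not installed, so its robust rank aggregation was run on edgeR p-values.

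Of 3152 sgRNAs, 7 with a mean under 30 reads were removed. The remaining 3145 entered 1 quasi-likelihood fit over all 9 libraries in edgeR 4.0.16 (R 4.3.3), with TMM scaling and no term but the group. Its common dispersion of 0.0173 corresponds to a coefficient of variation of 13.2%. Within groups, pairs of libraries varied 10.7 to 25.7 times more than sampling alone would give, so no library was a repeat deposit of another in its group. Pairs across groups were not compared in this way. One-sided p-values under 0.25 entered the rank aggregation, whose p was computed exactly from ranks drawn without replacement and adjusted over 763 genes (threshold 0.05). Intervals came from limma 3.58.1 on gene mean log2 CPM (prior count 2). Scripts were tested on simulated counts.

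The labels number repeats from 1 to 3 in each group. Deviations from group means correlated at 0.175, 0.198 and 0.188 between same-numbered pralatrexate and vehicle libraries, and at -0.03 to 0.07 with baseline, so the numbers pair the day 10 libraries.

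Members and pathway genes were chosen with earlier results of these data known. Values are given for the 9 genes, for pathway genes called in any comparison and for 7 pathway genes named regardless, of which 1 is not reported here. Alternatives were RLE and non-targeting scaling, no filter and a minimum of 300 reads, DESeq2 1.42.0, the compared groups alone, a replicate block, limma on gene means, edgeR on summed reads, leaving out the strongest sgRNA and leaving out each library. The strongest sgRNA was left out of the 9 genes only, so these were ranked with fewer sgRNAs against intact genes. The time from infection to baseline differs between the study's main text, which has it longer, and its methods and labels, which were followed here.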

Additional observations from a re-analysis of the deposited data

How the results depend on the processing

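In vehicle against baseline MTOR and PDPK1 were depleted under every alternative except that PDPK1 was not without the strongest sgRNA. Without that sgRNA 1 gene, MTOR, was called in vehicle and in pralatrexate against baseline, beside 3 and 2. AKT1 (-0.45, vehicle) and PDPK1 (-1.31 and -1.21) were not. Limma on gene means called 6 in each, 5 depleted and 1 enriched in vehicle and 4 and 2 in pralatrexate against baseline, and edgeR on summed reads called 7 (5 and 2) and 6 (4 and 2). Limma added AKT2 (FDR 0.00208) and RPS6KB2 (0.0450) as depleted and SGK1 (0.0193) as enriched in vehicle, and AKT1 (0.000172) and AKT2 (0.0192) as depleted and SGK1 (0.0150) and SGK3 (0.00328) as enriched in pralatrexate against baseline. Summed reads added AKT2, RPS6KB1, SGK1 and SGK3 in vehicle against baseline. Over all genes these called 151 depleted and 69 enriched, and 160 and 110, in vehicle against baseline, beside 57 and 4, and in pralatrexate against baseline 152 and 75, and 174 and 123, beside 56 and 2. With libraries scaled to the non-targeting sgRNAs, the median gene stood at -0.32 in vehicle against baseline. This scaling raised the called sgRNAs to 22 in vehicle and 20 in pralatrexate against baseline, beside 12 and 13, and turned SGK1 (-0.11 and -0.090), SGK2 (-0.20 and -0.26) and SGK3 (-0.14 and -0.00093) negative in vehicle and in pralatrexate against baseline.

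Leaving out each library in turn gave 2 to 3 genes called in vehicle against baseline, 2 to 3 in pralatrexate against baseline and 0 to 0 in pralatrexate against vehicle. The called sgRNAs of the 9 genes ranged from 9 to 12, from 8 to 12 (8 without baseline library 1) and from 0 to 0. Shares over all tested sgRNAs were not computed for these fits. In pralatrexate against vehicle, where nothing was called, signs turned for AKT1 (-0.046), RPS6KB1 (-0.023), SGK1 (-0.022) and MTOR (0.087) without the strongest sgRNA, for MTOR (0.097) and SGK1 (-0.0062) on summed reads, and for AKT2 (-0.051) with no filter. Leaving out a library turned signs there too, with ranges of -0.048 to 0.097 for AKT1, -0.17 to 0.073 for MTOR, -0.022 to 0.13 for RPS6KB1, -0.032 to 0.044 for SGK1 and -0.14 to 0.0080 for SGK2. In vehicle against baseline SGK2 ranged from 0.058 to 0.20 and SGK3 from 0.13 to 0.29. The cause of these changes was not tested. Over all genes, leaving out a library gave 2 to 5 enriched in vehicle against baseline (2 with DESeq2), beside 4, 2 to 6 depleted in pralatrexate against vehicle, beside 5, and 1 to 7 enriched in pralatrexate against baseline, beside 2.

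With the replicate block, members called were 3, 0 and 2 in vehicle against baseline, pralatrexate against vehicle and pralatrexate against baseline, and the block changed no gene's call. Called sgRNAs were 14, 0 and 13. Chosen after seeing the data, limma on the day 10 libraries with the number as a term called 12 of 763 genes, beside 5 without it, and none of the 9 (adjusted p 0.997). AKT2 sgRNA 4, with 0 to 12 reads, was too scarce to be tested.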
